A study of Mus musculus with 9 samples.

Results

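Proteasome subunits were taken as the protein-coding genes whose GENCODE symbol on the mouse build GRCm38 starts with Psma, Psmb, Psmc or Psmd followed by a digit, without the immunosubunits Psmb8 and Psmb9. This rule, which used no measured value, found 38 genes among the 38293 genes of the count table, of which 21250 were annotated as protein-coding. The core particle was represented by 17 genes (8 alpha and 9 beta subunits) and the regulatory particle by 20 genes (6 ATPases, 11 other subunits and 3 assembly factors of its base). The remaining gene, Psmc3ip, encodes a recombination protein that the symbol alone brings into the list. RNA came from the left ventricle of male C57BL/6 mice with an age of 8 weeks on the labels, in 3 mice sampled 1 day after ischemia-reperfusion (IR_24hr, mice 4, 5 and 6), 3 mice 14 days after it (IR_14d) and 3 sham-operated mice (mice 1, 2 and 3). Ischemia-reperfusion was a 1-hour tie of the left anterior descending artery followed by reflow, with the infarct region sampled. The labels name no transgene or drug in any group, and the day of collection of sham tissue is not given in the labels. The 14-day count columns carry 1 shared name, so those libraries are called A, B and C.

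The proteasome is the barrel-shaped protease that degrades ubiquitin-tagged proteins. Its core particle stacks rings of alpha subunits, which gate the entrance, around rings of beta subunits, some of which cut peptide bonds. The regulatory particle caps the core. Its ATPases unfold the substrate and push it inward, and its other subunits bind ubiquitin, remove it and hold the cap together. In heart muscle the proteasome is known for removing damaged and misfolded proteins, and the stress-activated factor encoded by Nfe2l1 is known to raise all of its subunit genes together when proteasome activity falls short.

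The libraries held 20215781 to 36816818 counts each, of which 7217019 to 15969149 lay outside ribosomal RNA genes. The 38 genes took 0.280, 0.262 and 0.220% of the counts outside ribosomal RNA in mice 4, 5 and 6 at 1 day, 0.183, 0.186 and 0.199% in libraries A, B and C at 14 days, and 0.186, 0.180 and 0.172% in sham mice 1, 2 and 3. These shares were not scaled between libraries. Mitochondrially encoded genes took 9.19, 13.1 and 15.0% of the counts outside ribosomal RNA in mice 4, 5 and 6. They took 16.8, 16.1 and 13.6% in libraries A, B and C and 16.9, 18.7 and 20.9% in sham mice 1, 2 and 3. The part of this difference in the shares of the 38 genes was not tested. Every pair of libraries within a group differed beyond sampling noise, and each library was 1 replicate. Heart muscle markers (Myh6, Tnnt2, Tnni3, Actc1 and Ryr2) were abundant in every library, with summed levels of 6044 to 11523 CPM at 1 day, 10925 to 15170 CPM at 14 days and 15902 to 18070 CPM in sham. Mouse 6 stood apart from mice 4 and 5, with the highest of the 1-day heart muscle sums and the lowest neutrophil sum (45.5 CPM, against 105.9 and 123.1 CPM), and counts at 1 day are also given without it. CPM is a gene's count relative to its library's total after trimmed-mean scaling, and a called gene passed an adjusted p of 0.05 in edgeR's quasi-likelihood test over 14124 genes.

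At 1 day after ischemia-reperfusion, transcripts of the regulatory particle were higher than in sham in 13 of its 20 genes, while 2 of the 15 core genes that could be tested were higher. No gene of the symbol rule was called lower, and none with a negative log2 fold had an unadjusted p under 0.05 in edgeR. Sem1, a lid subunit outside the rule, was called lower (log2 fold -0.35, edgeR adjusted p = 0.00292). The largest change was that of Psmd11, a lid subunit that clamps the regulatory particle onto the core, which rose 1.88-fold. The median log2 fold over sham was 0.34 for the regulatory particle, 0.080 for the core and 0.045 for all tested genes. Of all tested genes 54.2% were called, 29.4% higher and 24.8% lower, so the core's share of higher calls was below this background and the regulatory particle's share was above it. All 20 regulatory particle genes had a positive log2 fold, as had 10 of the 15 core genes and 7451 of all 14124 tested genes. In 17 of the 20 regulatory particle genes and 5 of the 15 core genes every 1-day library lay above every sham library, against 33.5% of all tested genes. In tissue RNA of this kind, fewer cells of a type and less RNA per cell cannot be told apart.

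**Figure D1:**
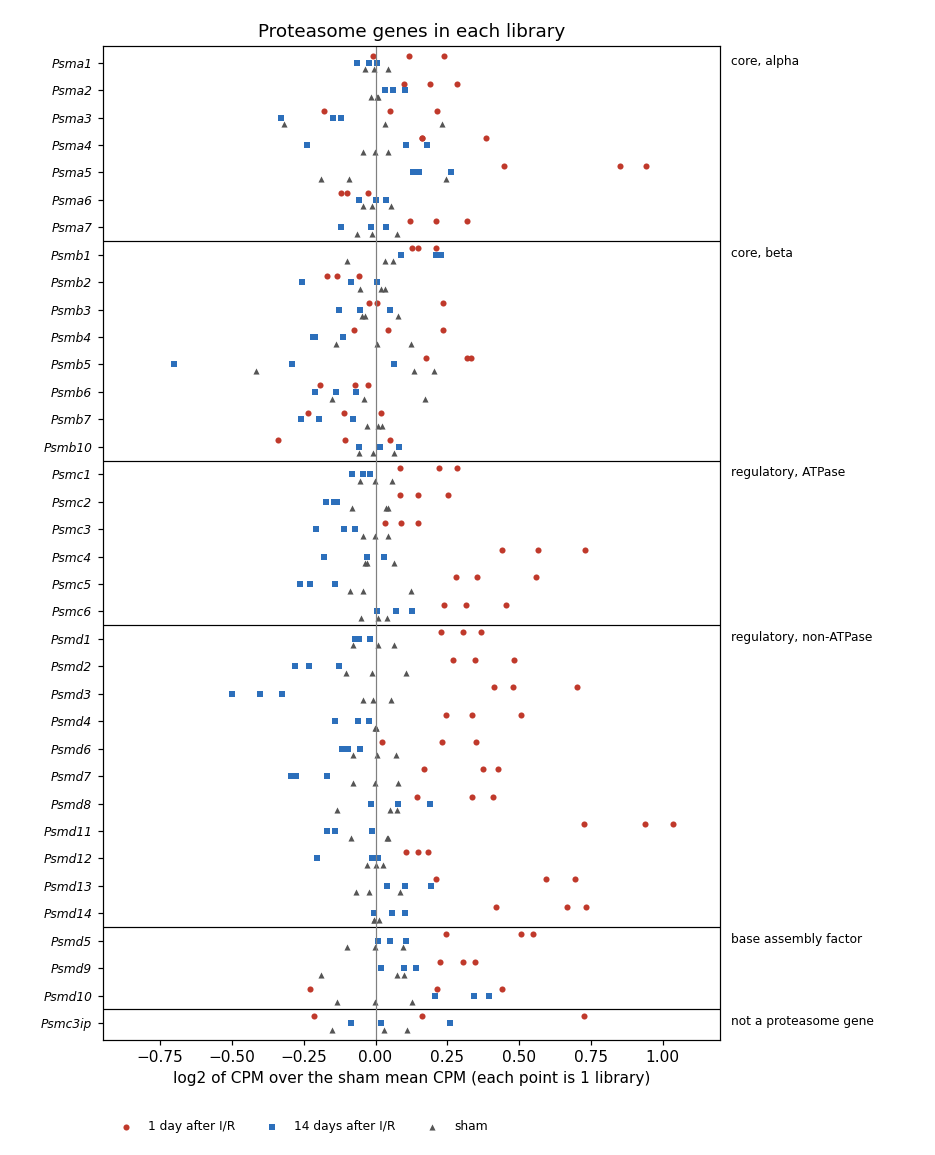
Each row is 1 proteasome gene and each point 1 library (log2 of its CPM over the sham mean CPM), at 1 day, at 14 days and in sham, with the core genes above the regulatory particle genes. The 1-day points of Psmd11, Psmd14 and Psmc4 lie to the right of all other libraries, while the points of most beta subunits overlap.

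Among the alpha subunits, Psma5 stood out. It had 6.51, 6.94 and 4.93 CPM in mice 4, 5 and 6 at 1 day, 4.01, 3.96 and 4.33 CPM in the 14-day libraries A, B and C, and 3.39, 3.17 and 4.28 CPM in sham mice 1, 2 and 3. Every 1-day library was above every sham and 14-day library. The log2 fold of Psma5 at 1 day was 0.79 (SE 0.16, edgeR adjusted p = 0.00185). Psma7 was the other core gene called, with 36.7, 34.05 and 31.97 CPM at 1 day, 29.1, 27.1 and 30.2 CPM at 14 days and 30.97, 29.2 and 28.2 CPM in sham, so that its 1-day libraries also lay above the rest. Its log2 fold was 0.22 (SE 0.086, edgeR adjusted p = 0.0486), and this call ended in 17 of the 20 alternative settings.

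The other alpha subunits did not pass the test at 1 day. Psma2 had 26.8, 25.04 and 23.5 CPM at 1 day, 22.5, 22.9 and 23.6 CPM at 14 days and 21.8, 22.1 and 22.1 CPM in sham, with 1-day libraries above sham by a small margin (edgeR adjusted p = 0.0561). Psma4, whose yeast counterpart has the tail that closes the gate of the ring, had 19.5, 16.7 and 16.7 CPM at 1 day, 16.1, 12.7 and 16.9 CPM at 14 days and 15.4, 14.9 and 14.5 CPM in sham. Its 1-day libraries were all above sham, but library C at 14 days was among them (edgeR adjusted p = 0.0994 at 1 day). Psma1 had 35.5, 38.7 and 42.1 CPM at 1 day, 35.2, 34.1 and 35.8 CPM at 14 days and 34.8, 36.8 and 35.6 CPM in sham. Mouse 4 lay within the sham range for Psma1. Psma3 had 6.99, 7.82 and 5.96 CPM at 1 day, 6.19, 5.36 and 6.09 CPM at 14 days and 5.40, 6.90 and 7.92 CPM in sham, the smallest difference of the alpha subunits, with sham values spanning all those at 1 day. Psma6, the alpha subunit with the highest level per length in sham, had 22.5, 24.01 and 22.8 CPM at 1 day, 24.5, 25.1 and 23.5 CPM at 14 days and 25.4, 23.7 and 24.3 CPM in sham. Its log2 fold was -0.082 (SE 0.077) and the 3 groups overlapped. Psma8, known as the testis form that replaces Psma7 in germ cells, did not pass the filter on low counts and had 0.181, 0.357 and 0.179 CPM at 1 day, 0.346, 0.264 and 0.531 CPM at 14 days and 0.293, 0.202 and 0.319 CPM in sham.

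None of the 8 tested beta subunits was called at 1 day by edgeR, DESeq2 or limma-voom, none of them had an unadjusted p under 0.05 in edgeR, and their median log2 fold was -0.011. The subunits that carry the cutting sites are encoded by Psmb5 (chymotrypsin-like), Psmb6 (caspase-like) and Psmb7 (trypsin-like). Psmb5 had 4.997, 5.04 and 4.52 CPM at 1 day, 4.19, 2.46 and 3.27 CPM at 14 days and 4.39, 4.61 and 3.002 CPM in sham, with mouse 6 within the range of sham. It had the largest log2 fold of the beta subunits at 1 day, 0.26 (SE 0.20, edgeR adjusted p = 0.299). Psmb6 had 35.5, 31.6 and 34.4 CPM at 1 day, 34.5, 32.9 and 31.2 CPM at 14 days and 40.8, 35.1 and 32.6 CPM in sham, and its 1-day values lay below or within those of sham. Psmb7 had 25.5, 23.4 and 27.9 CPM at 1 day, 26.1, 22.97 and 23.98 CPM at 14 days and 26.9, 27.96 and 27.7 CPM in sham. The 1-day and sham libraries overlapped for Psmb7, with a log2 fold of -0.11 (SE 0.089). Psmb10, the inducible subunit that takes the place of Psmb7 in the immunoproteasome, had 11.3, 8.61 and 10.1 CPM at 1 day, 11.01, 10.5 and 11.5 CPM at 14 days and 11.4, 10.8 and 10.5 CPM in sham. Mouse 4 was within the sham range and mice 5 and 6 below it.

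The beta subunits without a cutting site had log2 folds from -0.12 to 0.16 at 1 day. Psmb1 had 33.2, 34.6 and 32.7 CPM at 1 day, 34.7, 31.9 and 35.1 CPM at 14 days and 31.3, 30.7 and 27.98 CPM in sham, with the 1-day and 14-day libraries all above sham and an edgeR adjusted p of 0.116 at 1 day. Psmb2 had 24.9, 25.5 and 26.9 CPM at 1 day, 28.1, 26.4 and 23.5 CPM at 14 days and 28.6, 28.4 and 26.95 CPM in sham, the highest beta level per length. Its 1-day libraries were all below sham, by a log2 fold of -0.12 (SE 0.087, edgeR adjusted p = 0.254). Psmb3 had 10.9, 9.09 and 9.27 CPM at 1 day, 8.89, 8.47 and 9.56 CPM at 14 days and 8.96, 9.77 and 9.01 CPM in sham, and mouse 4 alone was above sham. Psmb4 had 36.9, 32.3 and 29.8 CPM at 1 day, 29.00, 26.95 and 27.1 CPM at 14 days and 34.1, 31.5 and 28.5 CPM in sham, the smallest difference of the beta subunits, 0.074 on the log2 scale (SE 0.10). Psmb11, known for its part in the thymus, is not one of those without a cutting site and had no count in any library.

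Of the 6 ATPases of the regulatory particle, 3 rose at 1 day. Psmc4, at chr7:28041707-28050101 on the reverse strand of GRCm38, had 39.00, 34.8 and 31.9 CPM at 1 day, 23.05, 20.7 and 23.98 CPM at 14 days and 24.6, 22.9 and 23.1 CPM in sham. All 1-day libraries were above all others, and the log2 fold was 0.59 (SE 0.10, edgeR adjusted p = 0.000503). Psmc5 had 25.3, 20.8 and 21.9 CPM at 1 day, 15.5, 14.6 and 14.3 CPM at 14 days and 16.6, 18.7 and 16.1 CPM in sham, with the same separation of the 1-day libraries and a log2 fold of 0.40 (SE 0.10, edgeR adjusted p = 0.00525). Psmc6 had 50.2, 55.2 and 47.5 CPM at 1 day, 42.4, 40.5 and 44.00 CPM at 14 days and 38.9, 40.5 and 41.5 CPM in sham, again with 1 day above both other groups and a log2 fold of 0.34 (SE 0.086, edgeR adjusted p = 0.00618).

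The other ATPases were not called at 1 day. Psmc1, whose tail docks into the alpha ring, had 30.05, 28.8 and 26.2 CPM at 1 day, 24.4, 23.96 and 23.3 CPM at 14 days and 25.7, 23.8 and 24.7 CPM in sham, with every 1-day library above sham (log2 fold 0.20, edgeR adjusted p = 0.0549). Psmc2 had 29.7, 31.9 and 28.5 CPM at 1 day, 23.8, 24.4 and 24.3 CPM at 14 days and 27.6, 27.5 and 25.4 CPM in sham, with 1-day libraries above sham and 14-day libraries below it (edgeR adjusted p = 0.106 at 1 day). Psmc3, the ATPase with the highest level per length, had 53.1, 49.1 and 50.96 CPM at 1 day, 45.7, 41.6 and 44.5 CPM at 14 days and 49.4, 47.9 and 46.5 CPM in sham. Mouse 5 was within the sham range, and the log2 fold of 0.090 (SE 0.082) was the smallest of the regulatory particle.

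The other subunits of the regulatory particle included most of the changes, with 9 of 11 higher at 1 day. Psmd11 lies at chr11:80428615-80473248 on the forward strand and had 36.5, 38.97 and 31.5 CPM at 1 day, 18.9, 16.9 and 17.2 CPM at 14 days and 17.9, 19.6 and 19.5 CPM in sham. The 1-day libraries were all above the others by a wide margin, with means of 35.6 ± 3.82 CPM at 1 day, 17.7 ± 1.04 CPM at 14 days and 19.02 ± 0.961 CPM in sham (SD, n = 3 per group). Its log2 fold at 1 day was 0.91 (SE 0.10, edgeR adjusted p = 5.14e-05), and Psmd11 was the single proteasome gene still called when the test was made against a 1.5-fold change. Psmd14, the enzyme that cuts ubiquitin chains off the substrate, had 27.6, 28.9 and 23.2 CPM at 1 day, 17.3, 18.1 and 18.6 CPM at 14 days and 17.3, 17.3 and 17.5 CPM in sham. Its 1-day libraries were above all others, with a log2 fold of 0.62 (SE 0.094, edgeR adjusted p = 0.000335). Psmd7, its structural partner, had 19.2, 19.96 and 16.7 CPM at 1 day, 13.2, 12.2 and 12.1 CPM at 14 days and 14.8, 14.05 and 15.6 CPM in sham, also with 1 day above the rest. The log2 fold of Psmd7 was 0.33 (SE 0.10), and its call at 1 day ended without sham mouse 2 or without mouse 4 or 5.

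Psmd3, a lid subunit at chr11:98682554-98695979 on the forward strand, had 40.97, 33.5 and 35.1 CPM at 1 day, 20.1, 17.8 and 19.04 CPM at 14 days and 25.02, 26.1 and 24.4 CPM in sham. No group overlapped another, with 1 day at the top and 14 days at the bottom. Its log2 fold over sham was 0.54 at 1 day (SE 0.094, edgeR adjusted p = 0.000732). Psmd13, another lid subunit, had 24.5, 22.9 and 17.5 CPM at 1 day, 17.3, 16.3 and 15.6 CPM at 14 days and 16.1, 14.9 and 14.4 CPM in sham, with mouse 6 just above the 14-day and sham libraries (log2 fold 0.52, edgeR adjusted p = 0.00369). Psmd8, also of the lid, had 41.99, 39.9 and 34.9 CPM at 1 day, 31.2, 33.4 and 36.04 CPM at 14 days and 28.8, 33.2 and 32.7 CPM in sham. The 1-day libraries were above sham, and library C at 14 days was above mouse 6. Its call (log2 fold 0.30, edgeR adjusted p = 0.0223) ended without sham mouse 1 or without mouse 4 or 5.

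The scaffold and receptor subunits moved by similar amounts. Psmd2, the scaffold on which shuttle proteins dock and the non-ATPase subunit with the highest level per length, had 72.7, 62.7 and 66.2 CPM at 1 day, 47.7, 44.3 and 42.8 CPM at 14 days and 55.99, 51.6 and 48.5 CPM in sham. The 3 groups did not overlap, and the log2 fold at 1 day was 0.37 (SE 0.10, edgeR adjusted p = 0.00676). Psmd1, the other large scaffold, had 62.8, 60.1 and 57.1 CPM at 1 day, 48.04, 46.8 and 46.3 CPM at 14 days and 50.9, 49.01 and 46.2 CPM in sham, with 1 day above both other groups (log2 fold 0.30, edgeR adjusted p = 0.00971). Psmd4, a receptor for ubiquitin chains, had 40.00, 35.6 and 33.4 CPM at 1 day, 27.7, 25.5 and 27.01 CPM at 14 days and 28.1, 28.2 and 28.2 CPM in sham. All 1-day libraries were above sham and 14 days, with a log2 fold of 0.37 (SE 0.087, edgeR adjusted p = 0.00385).

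Psmd6 and Psmd12, both lid subunits, were not called at 1 day. Psmd6 had 28.8, 26.5 and 22.97 CPM at 1 day, 21.1, 20.9 and 21.8 CPM at 14 days and 23.8, 22.7 and 21.4 CPM in sham, with mouse 6 within the sham range (log2 fold 0.21, edgeR adjusted p = 0.0812). Psmd12 had 28.9, 30.4 and 29.7 CPM at 1 day, 26.6, 26.98 and 23.3 CPM at 14 days and 26.3, 26.9 and 27.3 CPM in sham. Its 1-day libraries were above sham, by the smallest log2 fold of these 11 subunits, 0.15 (SE 0.082, edgeR adjusted p = 0.153).

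The assembly factors of the base, which leave before the particle is finished, had lower counts. Psmd5 had 11.7, 11.4 and 9.49 CPM at 1 day, 8.06, 8.29 and 8.62 CPM at 14 days and 7.99, 8.56 and 7.47 CPM in sham, with 1 day above both other groups and a log2 fold of 0.44 (SE 0.11, edgeR adjusted p = 0.00556). Psmd9 had 5.40, 5.56 and 5.11 CPM at 1 day, 4.43, 4.69 and 4.82 CPM at 14 days and 4.60, 4.68 and 3.83 CPM in sham, with 1 day above the rest and an edgeR adjusted p of 0.0712. It shares 25.5% of its exonic bases with a gene on the opposite strand, so its counts are uncertain. Psmd10, also known as gankyrin, had 2.92, 3.41 and 2.15 CPM at 1 day, 2.91, 3.19 and 3.31 CPM at 14 days and 2.51, 2.29 and 2.75 CPM in sham. Its groups overlapped at 1 day, and all 14-day libraries were above sham (log2 fold 0.33 at 14 days, edgeR adjusted p = 0.251). Psmc3ip, which is no proteasome subunit, had 1.29, 0.873 and 0.672 CPM at 1 day, 0.934, 0.791 and 0.735 CPM at 14 days and 0.795, 0.842 and 0.703 CPM in sham, with overlapping groups.

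**Figure D2:**
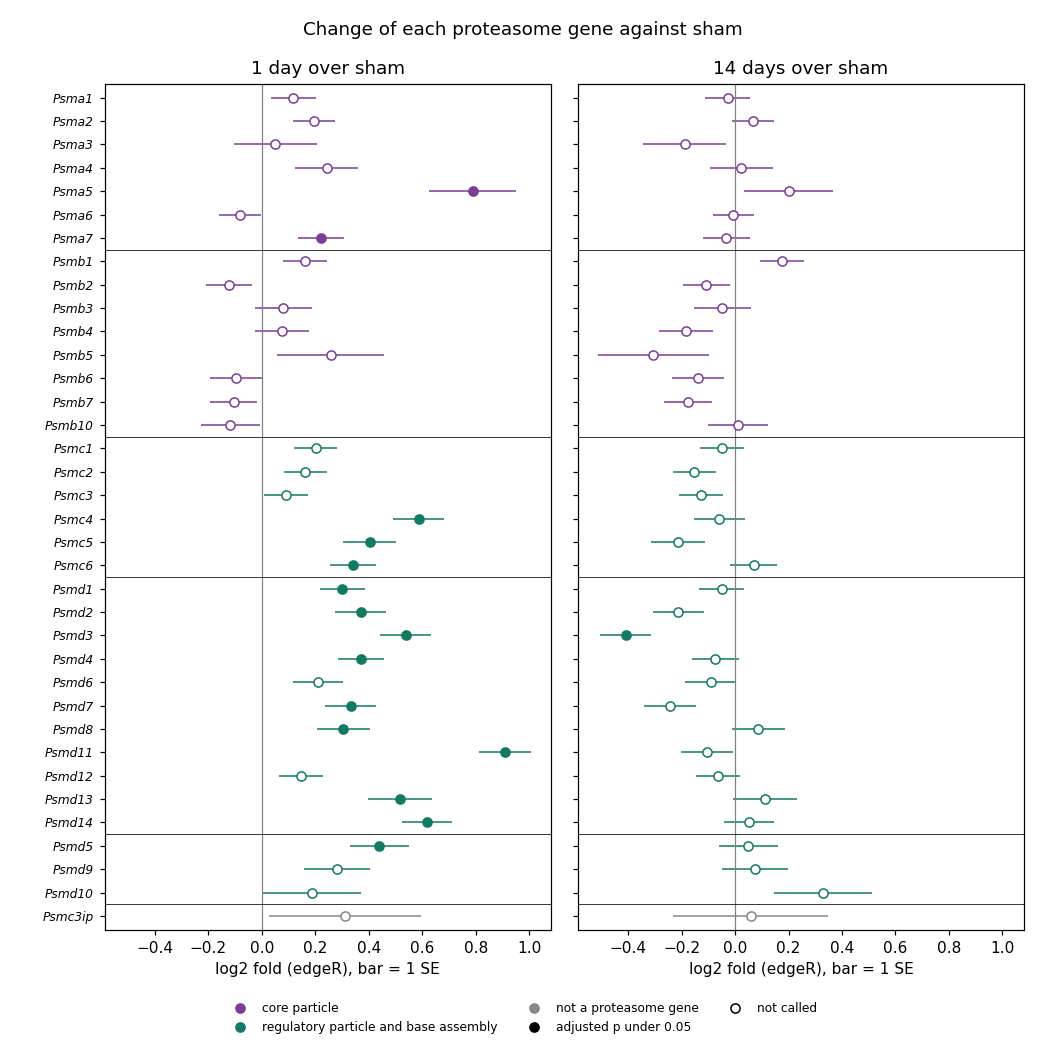
The log2 fold of each tested gene over sham, at 1 day on the left and at 14 days on the right, with a bar of 1 SE and colours for the core, the regulatory particle with its assembly factors, and Psmc3ip. At 1 day the regulatory particle runs from 0.090 (Psmc3) to 0.91 (Psmd11) and the core from -0.12 (Psmb2) to 0.79 (Psma5), while at 14 days Psmd3 is the lowest and the single gene called.

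The limits of the 1-day counts lie in scaling and in the size of the change. With scaling by total count only, the median of all tested genes stood at 0.53 at 1 day in place of 0.045, 6860 genes were called higher and 1057 lower in place of 4153 and 3496, and the calls became 20 of 20 regulatory particle and 10 of 15 core genes. Without mouse 6 the calls were 15 of 20 regulatory particle and 3 of 15 core genes. The median SE of the log2 fold was 0.0979 in the core and 0.0953 in the regulatory particle, with median counts of 607 and 650 per gene and library. Regulatory particle genes had longer transcripts, with a median longest transcript of 1986 bases against 1239 bases in the core, and close GC contents of 49.6% and 49.2%. With an offset for GC content and length the calls were 15 regulatory particle and 2 core genes, and the call of Psma7 was replaced by that of Psma2.

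The particles were also compared within each library. Summed over its genes, the core reached 324 to 338 CPM at 1 day, 294 to 314 CPM at 14 days and 303 to 324 CPM in sham. The regulatory particle reached 592 to 671 CPM at 1 day, 461 to 479 CPM at 14 days and 487 to 503 CPM in sham. The core sums of mice 5 and 6 lay at the upper end of the sham range, whereas every 1-day sum of the regulatory particle was above every other. The ratio of the core sum to the regulatory particle sum, into which no scaling factor enters, was 0.503, 0.506 and 0.547 in mice 4, 5 and 6, 0.656, 0.637 and 0.650 in libraries A, B and C, and 0.644, 0.631 and 0.623 in sham mice 1, 2 and 3. The 1-day ratios all lay below those of the other libraries, with means of 0.519 ± 0.0245 at 1 day, 0.648 ± 0.00954 at 14 days and 0.633 ± 0.0107 in sham (SD, n = 3 per group). No test was made of this ratio. Relative to sham the ratio was 0.820 at 1 day, and it was also 0.820 with only the subunits of the finished particle and 0.815 with sums per length. Without Psmd11 and Psmd3, a choice made after seeing the data, the mean ratio was 0.585 at 1 day and 0.694 in sham.

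**Figure D3:**
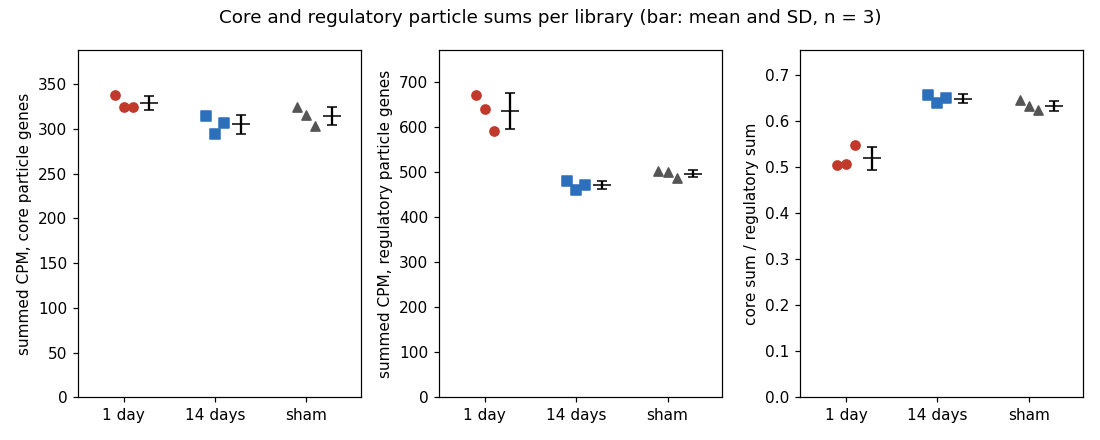
Summed CPM of the core, summed CPM of the regulatory particle and the ratio of the sums, with each point 1 library and bars for the mean and SD of 3 libraries, at 1 day, at 14 days and in sham. The ratio of the 1-day libraries (0.503 to 0.547) is below that of the other libraries (0.623 to 0.656).

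The 1-day mice were also compared with sham one by one. In mouse 4, 20 of the 20 regulatory particle genes lay above every sham library, in mouse 5 it was 19 and in mouse 6 it was 18. For the core the numbers were 8, 7 and 6 of 15 genes. Of all tested genes, 45.8, 44.7 and 40.1% lay above every sham library in mice 4, 5 and 6. Mouse 6 had the lowest of the 1-day values in 15 of the 20 regulatory particle genes and in 8 of the 15 core genes. Among all 14124 tested genes it was lowest in 6319, so the core count was near this background.

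Levels per length were not ordered by particle. In sham the highest values were those of Psmb2 (23.2 ± 0.752 RPKM), Psma6 (19.8 ± 0.686 RPKM), Psmb6 (19.3 ± 2.24 RPKM) and Psmc3 (18.4 ± 0.561 RPKM, SD, n = 3 each), computed over the union of annotated exons. The gaps from Psma6 to Psmb6 and from Psmb6 to Psmc3 were within the SD of Psmb6. The median over core genes was 7.44 RPKM at 1 day, 7.12 RPKM at 14 days and 6.52 RPKM in sham, and over regulatory particle genes it was 9.37 RPKM at 1 day, 7.03 RPKM at 14 days and 7.39 RPKM in sham. Psmd11 had 5.58 ± 0.598 RPKM at 1 day, against 2.77 ± 0.162 RPKM at 14 days and 2.98 ± 0.150 RPKM in sham, so the gene with the largest fold was among the lowest subunits of the finished particle in sham. Among the tested core and regulatory particle genes the assembly factors were lowest in sham. They had 0.603 RPKM for Psmd9, 1.11 RPKM for Psmd5 and 1.71 RPKM for Psmd10. The gap from Psmd10 to Psma3 (1.73 ± 0.326 RPKM in sham) was within the SD of Psma3. With the longest transcript in place of the union of exons the order changed, with Psmb6 (37.4 RPKM) above Psmb2 (32.6 RPKM) and Psma1 (29.7 RPKM) above Psma6 (23.5 RPKM) in sham.

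**Figure D4:**
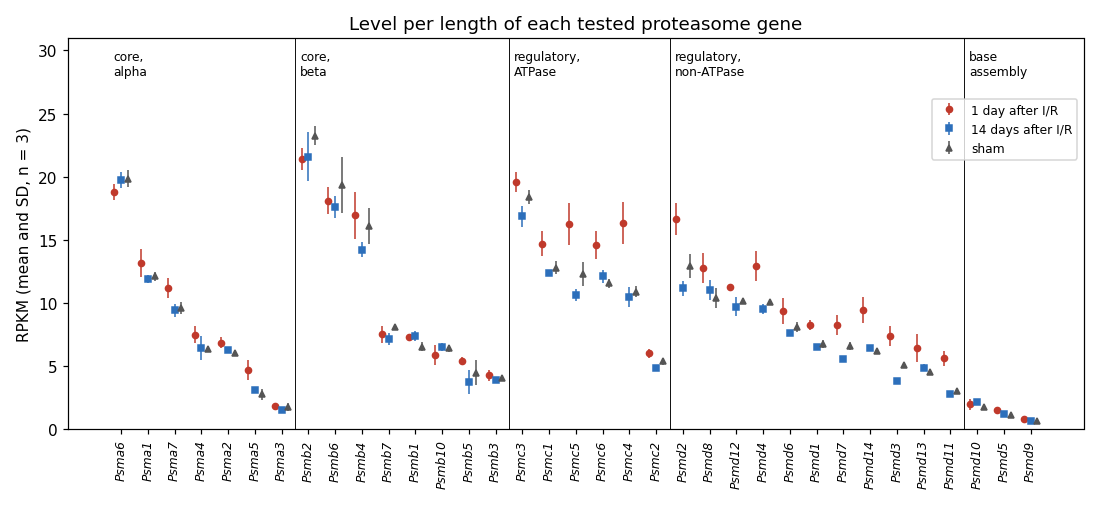
RPKM of each gene over the union of its exons (mean and SD of 3 libraries) at 1 day, at 14 days and in sham, ordered by particle and by the sham level. Psmb2 is the highest in sham at 23.2 RPKM, and most regulatory particle genes have their 1-day point above the others.

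At 14 days after ischemia-reperfusion, 35 of the 36 tested proteasome genes were not called against sham, and 1 gene, Psmd3, fell. Of all tested genes 14.4% were called, 8.75% higher and 5.64% lower. The median log2 fold over sham was -0.062 for the regulatory particle, -0.032 for the core and 0.014 for all tested genes. For Psmd3 the libraries listed above averaged 18.99 ± 1.15 CPM at 14 days and 25.2 ± 0.863 CPM in sham (SD, n = 3 each), with no overlap. Its log2 fold was -0.41 (SE 0.10, edgeR adjusted p = 0.0177). This call ended without sham mouse 1, without sham mouse 2 and without library B (adjusted p from 0.057 to 0.0869). It also ended with scaling by total count only (adjusted p = 0.404) and in the test against a 1.5-fold change.

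Other genes had 14-day libraries apart from sham without being called. In the regulatory particle 7 of 20 genes had every 14-day library below every sham library, against 18.4% of all tested genes, and 1 gene had them all above, against 21%. Beside Psmd3 the 7 genes included Psmd7 (log2 fold -0.24, edgeR adjusted p = 0.117), Psmc5 (log2 fold -0.21, edgeR adjusted p = 0.179) and Psmd2 (log2 fold -0.21, edgeR adjusted p = 0.161). In the core, Psmb7 had the 14-day libraries below sham (log2 fold -0.18, edgeR adjusted p = 0.205), while those of Psma2 and Psmb1 were above it. An edgeR unadjusted p under 0.05 was found in 3 of 20 regulatory particle genes and 0 of 15 core genes at 14 days against sham, both below the 30.3% of all tested genes.

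Between 14 days and 1 day, 17 of the 20 regulatory particle genes and 4 of the 15 core genes were lower at 14 days. None was called higher, and none with a positive log2 fold had an unadjusted p under 0.05 in edgeR. With an offset for GC content and length, Psmb10 was higher (log2 fold 0.32, edgeR adjusted p = 0.0149). Of all tested genes 51.9% were called, 26.8% lower and 25.1% higher. This contrast uses the same 1-day libraries as the comparison with sham, so both show those libraries. The median log2 fold of 14 days over 1 day was -0.37 for the regulatory particle, -0.13 for the core and 0.0047 for all tested genes. Psmd11 had 18.9, 16.9 and 17.2 CPM at 14 days, against 36.5, 38.97 and 31.5 CPM at 1 day, a log2 fold of -1.01 (SE 0.10, edgeR adjusted p = 2.45e-05). Psmd3 had 20.1, 17.8 and 19.04 CPM at 14 days, against 40.97, 33.5 and 35.1 CPM at 1 day, a log2 fold of -0.95 (SE 0.095, edgeR adjusted p = 3.29e-05). For both genes all 14-day libraries were below all 1-day libraries.

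All 6 ATPases and 10 of the 11 other subunits were lower at 14 days than at 1 day. Among the ATPases the log2 fold ran from -0.64 for Psmc4 (edgeR adjusted p = 0.0003) to -0.22 for Psmc3 (edgeR adjusted p = 0.0412). Psmd8 was the subunit not called (-0.22, edgeR adjusted p = 0.0843), and of the assembly factors Psmd5 was called (-0.39, edgeR adjusted p = 0.0104). In the core Psma5 was lower with a log2 fold of -0.59 (edgeR adjusted p = 0.00853) and Psmb5 with -0.56 (edgeR adjusted p = 0.0342). Psma7 and Psmb4 were called with log2 folds of -0.25 and -0.26, and edgeR adjusted p of 0.0281 and 0.0498. The calls with the smallest folds and that of Psmb5 were not firm. Those of Psmc3, Psmd12 and Psmb4 ended in 14, 15 and 16 of the 20 settings. Those of Psma7, Psmb5 and Psmc1 ended in 8, 7 and 7 of them. The regulatory particle count was 12 when only the groups compared were fitted, 14 without the filter on low counts, and 12 without mouse 4, without mouse 5 or without library B. The core count was 1 when only the groups compared were fitted, 2 without the filter on low counts, 7 with the offset for GC content and length, 10 with total count only, and 1 without mouse 4, without mouse 5 or without library B.

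Other cell types changed in the tissue along with these transcripts. At 1 day the 4 tested neutrophil markers of 5 were higher, with sums of 45.5 to 123 CPM at 1 day, 2.08 to 3.02 CPM at 14 days and 1.59 to 4.41 CPM in sham. Of 6 macrophage markers, 4 were higher at 1 day and 5 at 14 days against sham, with sums of 215 to 242 CPM at 1 day, 160 to 310 CPM at 14 days and 100.4 to 113 CPM in sham. Of 5 heart muscle markers, 4 were lower at 1 day. The 3 tested cell cycle genes of 4 were higher at 1 day, with sums of 18.1 to 70.6 CPM at 1 day, 14.7 to 24.7 CPM at 14 days and 14.7 to 15.7 CPM in sham. Of 5 fibroblast markers, 1 was higher and 2 lower at 1 day, and 4 were higher at 14 days, when the sum was 1477 to 3453 CPM, against 431 to 752 CPM in sham. Lymphocyte markers summed to at most 1.88 CPM and atrial markers to at most 1.21 CPM in any library, and no marker was at 0 in every library. Among 4 endothelium markers 1 was lower at 1 day, with sums of 258 to 267 CPM, against 347 to 367 CPM in sham. Among 4 smooth muscle and pericyte markers 2 were higher and 1 was lower at 1 day. Their sums were 275 to 360 CPM at 1 day and 437 to 449 CPM in sham. All 5 red cell markers were lower at 1 day. At 14 days against sham, 1 smooth muscle and pericyte marker was higher and 1 red cell marker was lower. The part of these cell types in the proteasome results was not tested.

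Promoter sequences are shown for 3 members, to set genes that rose beside a gene that was not called. They come from RefSeq on GRCm38.p6 and run from 250 bases before to 50 bases after the annotated start, which gave 33 windows for 31 of the 38 genes. Capitals mark TGACNNNGC, the core of the antioxidant response element to which Nfe2l1 and Nfe2l2 bind, on either strand. Psmd11 is the gene with the largest rise, Psmc6 rose and Psmb6 was not called.
Psmd11, chr11:80428365-80428664, forward strand: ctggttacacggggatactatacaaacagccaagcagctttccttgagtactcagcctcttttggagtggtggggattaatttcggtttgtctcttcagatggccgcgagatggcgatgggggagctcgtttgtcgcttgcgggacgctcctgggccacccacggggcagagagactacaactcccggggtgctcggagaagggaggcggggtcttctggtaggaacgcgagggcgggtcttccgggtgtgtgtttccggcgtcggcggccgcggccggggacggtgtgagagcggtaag
Psmc6, chr14:45329574-45329873, forward strand: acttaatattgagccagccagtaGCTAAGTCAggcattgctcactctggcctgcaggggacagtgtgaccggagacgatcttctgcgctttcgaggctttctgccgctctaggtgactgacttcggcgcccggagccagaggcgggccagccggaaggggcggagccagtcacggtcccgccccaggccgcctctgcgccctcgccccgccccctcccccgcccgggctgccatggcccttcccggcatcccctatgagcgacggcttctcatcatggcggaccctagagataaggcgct
Psmb6, chr11:70525107-70525406, forward strand: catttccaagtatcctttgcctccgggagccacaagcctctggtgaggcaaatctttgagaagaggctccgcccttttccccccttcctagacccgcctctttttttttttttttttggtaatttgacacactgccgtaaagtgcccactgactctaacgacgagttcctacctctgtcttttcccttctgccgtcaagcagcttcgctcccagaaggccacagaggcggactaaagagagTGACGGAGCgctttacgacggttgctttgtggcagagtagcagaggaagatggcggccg
The window of Psmd11 holds no match, that of Psmc6 holds 1 on the reverse strand and that of Psmb6 holds 1 on the forward strand. TGACNNNGC stood in 5 of the 33 member windows (15.2%), those of Psmb5, Psmb6, Psmc6, Psmd9 and Psmd12, against 12.4% of all 32851 windows. Of these genes Psmc6 was called at 1 day and the other 4 were not. CCAAT stood in 13 member windows (39.4%), against 37.4% of all windows, and GGAA in all 33, against 96.0%. All motifs were searched on both strands, and a base could lie in matches of more than 1 motif.

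Other genes of the pathway are counted by role at 1 day, beside the 29.4% of all tested genes called higher and the 24.8% called lower. Of 5 assembly chaperones of the core, Psmg3 was higher and the other 4 were not called. Psmg3 had 2.78, 1.94 and 1.88 CPM at 1 day, 1.32, 0.820 and 1.55 CPM at 14 days and 1.34, 1.21 and 1.41 CPM in sham, a log2 fold of 0.77 at 1 day (edgeR adjusted p = 0.0243) that was lost without sham mouse 1, sham mouse 2 or mouse 4. Of 6 alternative activators and inhibitors, 1 was higher and 2 were lower. Psme3, which encodes a nuclear activator, had 27.5, 28.2 and 23.8 CPM at 1 day, 17.1, 17.4 and 16.4 CPM at 14 days and 19.8, 19.5 and 16.9 CPM in sham, and every 1-day library was above every other (log2 fold 0.50, edgeR adjusted p = 0.00123). Psme4, which encodes a large single-chain activator, had 142, 137 and 228 CPM at 1 day, 285, 266 and 263 CPM at 14 days and 301, 333 and 301 CPM in sham, with mice 4 and 5 far below all other libraries (log2 fold -0.88, edgeR adjusted p = 0.00185). Psme1, of the interferon-induced activator, was lower at 1 day, with a log2 fold of -0.59 (edgeR adjusted p = 0.00129).

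Of 9 proteins that sit on the particle, 3 were higher and 3 lower at 1 day, near the shares of all tested genes. Adrm1, another ubiquitin receptor of the regulatory particle, had 5.18, 4.13 and 3.58 CPM at 1 day, 1.94, 1.90 and 1.43 CPM at 14 days and 2.85, 2.56 and 1.79 CPM in sham. Its 1-day libraries were above all others, with a log2 fold of 0.83 (edgeR adjusted p = 0.00528). Txnl1 (0.48, edgeR adjusted p = 0.0017) and Zfand2a (0.67, edgeR adjusted p = 0.00235) were also higher on the log2 scale. Sem1, the smallest lid subunit and outside the symbol rule, had 25.1, 24.8 and 25.97 CPM at 1 day, 30.6, 29.4 and 32.2 CPM at 14 days and 32.7, 30.7 and 33.5 CPM in sham, and every 1-day library was below every other (log2 fold -0.35, edgeR adjusted p = 0.00292). Zfand5 (-0.58, edgeR adjusted p = 0.000933) and Ecpas (-0.54, edgeR adjusted p = 0.00251), which encodes a protein that ties the core to the cap, were lower. With scaling by total count only the lower calls of Psme4, Psme1, Zfand5 and Ecpas ended and the log2 fold of Sem1 turned to 0.13.

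Of 11 shuttle proteins and p97 partners, 5 were higher and 1 was lower at 1 day, against 29.4% and 24.8% of all tested genes. Rad23b, a shuttle that carries ubiquitin-tagged proteins to the particle, had 59.1, 56.2 and 50.8 CPM at 1 day, 37.9, 38.5 and 37.02 CPM at 14 days and 39.2, 42.3 and 41.7 CPM in sham, with 1 day above both other groups (log2 fold 0.43, edgeR adjusted p = 0.00147). Nploc4 (0.46) and Ubqln1 (0.37) were higher by similar log2 folds, and Faf1 was lower (-0.30, edgeR adjusted p = 0.0194), a call lost without sham mouse 1 or sham mouse 2 and turned to 0.16 by total count only. At 14 days Ubqln4 was the single gene of this list called against sham, with a log2 fold of -0.40 (edgeR adjusted p = 0.0125). This call ended in 6 of 20 settings, which were total count only, the test against a 1.5-fold change and leaving out sham mouse 1, sham mouse 2, library B or library C.

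Of 4 tested ubiquitin and ubiquitin-activating genes, 3 were higher at 1 day, against 29.4% of all tested genes, and Ubb was not called. Uba1, the main ubiquitin-activating enzyme, had 132, 118 and 103 CPM at 1 day, 87.7, 83.00 and 78.6 CPM at 14 days and 97.3, 92.6 and 82.3 CPM in sham, with all 1-day libraries on top (log2 fold 0.38, edgeR adjusted p = 0.0168), a call that ended without sham mouse 2, sham mouse 3 or mouse 4. Uba6 was higher by 0.32 on the log2 scale (edgeR adjusted p = 0.00688). Ubb, a polyubiquitin gene, was higher at 14 days by 0.28 (edgeR adjusted p = 0.0432), a call that ended in 12 of 20 settings. Rps27a was called higher at 1 day but has near-identical copies in the genome, so its low counts are uncertain.

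Among 10 regulators of proteasome genes, 3 were higher at 1 day, a share near the 29.4% of all tested genes, and 1 was lower, against 24.8%. Nfe2l1 itself had 159, 137 and 170.1 CPM at 1 day, 183, 156 and 158 CPM at 14 days and 190.0, 181 and 179 CPM in sham, with mice 4, 5 and 6 below every sham library and an edgeR adjusted p of 0.112 (log2 fold -0.24). Nfe2l1 was called lower by DESeq2 (log2 fold -0.28, adjusted p = 0.0363), with the offset for GC content and length (edgeR adjusted p = 0.0193) and without mouse 6 (edgeR adjusted p = 0.0247). Nfe2l2 had 29.5, 39.2 and 32.96 CPM at 1 day, 30.01, 31.6 and 33.3 CPM at 14 days and 31.3, 26.3 and 27.02 CPM in sham, with overlapping groups (edgeR adjusted p = 0.071), and was called higher with total count only and without sham mouse 1 or mouse 4. The small Maf genes, whose proteins pair with both factors on DNA, were the 3 that rose. Mafk had 40.04, 31.7 and 20.8 CPM at 1 day, 12.3, 10.1 and 11.7 CPM at 14 days and 10.9, 11.2 and 9.33 CPM in sham, with the 1-day libraries above all others and a log2 fold of 1.56 (edgeR adjusted p = 0.00021). Maff rose by 1.33 (edgeR adjusted p = 0.0014) and Mafg by 0.63 (edgeR adjusted p = 0.000528) on the log2 scale. Ngly1, whose enzyme helps to activate the Nfe2l1 protein, was lower with -0.24 (edgeR adjusted p = 0.0214). Its call was lost without sham mouse 1, without sham mouse 3 and without the filter on low counts. It was also lost with the offset for GC content and length and against a 1.5-fold change. Scaling by total count only turned the log2 fold of Ngly1 to 0.24. The immunosubunits left out by the rule were not called in the edgeR fit of all 9 libraries with TMM scaling and edgeR's filter. Psmb8 had 6.90, 5.79 and 6.001 CPM at 1 day, 5.30, 6.21 and 6.58 CPM at 14 days and 4.18, 4.41 and 6.45 CPM in sham and Psmb9 had 1.94, 1.83 and 2.33 CPM at 1 day, 2.21, 2.58 and 2.74 CPM at 14 days and 1.34, 1.85 and 1.72 CPM in sham, and every 14-day value of Psmb9 was above every sham value (log2 fold 0.61, edgeR adjusted p = 0.0529). At 14 days Psmb9 was called higher in 4 settings, with the filter of 1 CPM in 3 libraries, with only the groups compared and without mouse 6 or library A (edgeR adjusted p from 0.0336 to 0.0495). At 1 day Psmb8 and Psmb9 were called higher with total count only, and Psmb8 also without sham mouse 3.

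**Figure D5:**
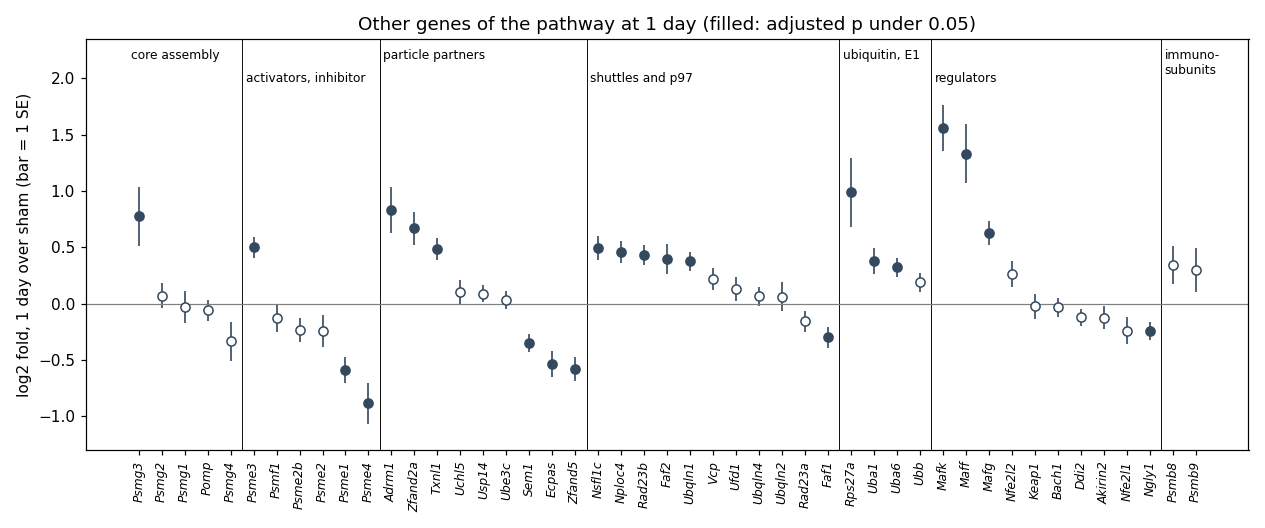
The log2 fold at 1 day over sham (bar of 1 SE) of the other genes of the pathway, in blocks by role, with filled points for called genes. The small Maf genes Mafk (1.56) and Maff (1.33) are the highest and Psme4 (-0.88) is the lowest.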

How the data were processed

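Per the labels' protocols, the tissue was lysed in TRIzol and its RNA, depleted of ribosomal RNA, went into strand-marked libraries. STAR 2.7.1a and the build GRCm38 (mm10) are named in the submitters' processing notes. The authors deposited raw counts, whole numbers per gene. How reads were counted (program, strand, reads with several matches) is not stated, so genes that share exonic bases with others are uncertain. Among the members, Psmd9 (25.5%), Psmc3ip (21.2%), Psmb5 (12.1%), Psmb7 (11.8%) and Psmd13 (10.1%) shared at least 10% of theirs, and Psmb5, Psmb6 and Psmb7 have named pseudogenes.

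GENCODE M21, which held 36429 of the 38293 table genes, gave names, positions and lengths. The test was edgeR's quasi-likelihood F test (edgeR 4.0.16, R 4.3.3) after TMM scaling and edgeR's filter on low counts, which kept 14124 genes and 36 of the 38 members. All 9 libraries shared 1 fit with robust dispersion. P-values were adjusted by Benjamini-Hochberg over all genes tested, with a threshold of 0.05. The SE is the log2 fold divided by the square root of the F statistic. CPM used TMM-scaled library sizes, and RPKM the union of exons. Mice were the replicates. Depths of 20215781 to 36816818 counts set the precision of low genes. The test was also run on counts simulated from its own fitted spread. Few genes were changed there, as many up as down, so that run could not check the scaling.

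The members and gene lists were chosen with earlier results of these data known. Each member could be named. A gene of the pathway lists is not reported here. For other pathway genes the rule named, in each list and comparison, 3 called genes by highest mean CPM on the side with more calls and 2 on the other side, and always Nfe2l1, Nfe2l2, Psmb8 and Psmb9. Alternatives were other tools (DESeq2 1.42.0, limma-voom 3.58.1), other scalings (DESeq2's size factors, total count only, upper quartile, TMM without mitochondrial and ribosomal RNA genes) and other filters (none, or 1 CPM in 3 libraries). Others were a fit of only the groups compared, a null of a 1.5-fold change, a correction for GC content and length, and leaving out each library. The ratio of the particles without Psmd11 and Psmd3 was chosen after seeing the data. Figures were drawn with matplotlib 3.10.9.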

Additional observations from a re-analysis of the deposited data

Results flagged for a closer look

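For the following genes the change at 14 days differed from the change at 1 day, both against sham, by the test of 14 days over 1 day (edgeR adjusted p under 0.05). This is the same contrast as in the comparison of 14 days with 1 day, and both changes share the sham libraries. Among the non-ATPase subunits the difference on the log2 scale was -1.01 for Psmd11, -0.95 for Psmd3, -0.58 for Psmd2, -0.58 for Psmd7 and -0.56 for Psmd14. It was -0.44 for Psmd4, -0.40 for Psmd13, -0.35 for Psmd1, -0.30 for Psmd6 and -0.21 for Psmd12, and -0.39 for the assembly factor Psmd5. Among the ATPases it was -0.64 for Psmc4, -0.62 for Psmc5, -0.31 for Psmc2, -0.27 for Psmc6, -0.25 for Psmc1 and -0.22 for Psmc3. In the core it was -0.59 for Psma5, -0.56 for Psmb5, -0.26 for Psmb4 and -0.25 for Psma7. The calls of Psmb4, Psmd12 and Psmc3 ended in 16, 15 and 14 of the 20 settings. Those of Psma7, Psmb5 and Psmc1 ended in 8, 7 and 7. All 21 of the differences listed for subunits and Psmd5 were below 0, which means lower at 14 days than at 1 day. For Psmd3 the libraries at 14 days were also below sham, while those at 1 day were above it.

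Among the other genes of the pathway the difference was lower at 14 days for Mafk (-1.45), Adrm1 (-1.29), Rps27a (-1.03), Mafg (-0.91), Psmg3 (-0.89) and Psme3 (-0.65). It was also lower for Nploc4 (-0.59), Rad23b (-0.55), Txnl1 (-0.54), Uba1 (-0.51), Ubqln4 (-0.46), Ubqln1 (-0.45) and Zfand2a (-0.45). It was higher at 14 days for Psme4 (0.68), Zfand5 (0.51), Ecpas (0.45), Psme1 (0.38), Ngly1 (0.34), Sem1 (0.28) and Faf1 (0.27).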

How the results depend on the processing

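No paired analysis was possible because the groups share no replicate numbers. At 1 day the median log2 fold of the regulatory particle minus that of the core was 0.26 and ran from 0.17 (without mouse 5) to 0.26 with 1 library left out, and the ratio of core to regulatory particle relative to sham, 0.820, ran from 0.797 to 0.832. The 1-day core count of 2 was 1 with DESeq2, limma-voom, DESeq2's size factors, upper-quartile scaling, TMM without mitochondrial and ribosomal RNA genes, no filter on low counts and the groups compared alone, since Psma7 was lost. It was 10 with total count only and 0 against a 1.5-fold change, and 1 to 3 with 1 library left out. The regulatory particle count of 13 was 20 with total count only, 1 against a 1.5-fold change (2688 of all genes) and 11 to 15 with 1 library left out. At 14 days against sham the count of all genes, 2033, was 832 with total count only, 174 against a 1.5-fold change and 478 (without sham mouse 2) to 3221 (without mouse 6) with 1 library left out. The regulatory particle count of 1 was 0 in both of those settings and 0 to 1 with 1 library left out, and the core count of 0 was 1 (Psmb7) with the offset for GC content and length. Between 14 days and 1 day the core count of 4 was 10 with total count only, 7 with that offset, 2 without the filter, 1 with the groups compared alone, 0 against a 1.5-fold change and 1 to 4 with 1 library left out. The regulatory particle count of 17 was 2 against a 1.5-fold change (2124 of all genes) and 12 to 17 with 1 library left out. The median of the regulatory particle minus that of the core, -0.24, ran from -0.31 (without mouse 6) to -0.19 (without library C). The ratio of core to regulatory particle at 14 days over 1 day, 1.25, was 1.20 without Psmd11 and Psmd3 and ran from 1.23 to 1.28 with 1 library left out. With total count only the direction turned at 1 day for Sem1 (0.13), Faf1 (0.16) and Ngly1 (0.24), and at 14 days over 1 day for Psme1 (-0.0039), Sem1 (-0.099), Faf1 (-0.10) and Ngly1 (-0.041). No called gene of the symbol rule changed direction in any setting. With total count only the shift of the median of all genes was part of the setting. For the other lost calls the cause was not tested.

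Depth limits the low members. Psmd10 had 43 counts in its lowest library and Psmb5 had 47, and their SEs of 0.18 and 0.20 at 1 day were the largest of the tested core and regulatory particle genes.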
